A study of Mus musculus with 16 samples.

Results

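Open chromatin was followed around 8 mouse genes of the transcriptional end of the Hippo pathway while fibroblasts were chemically reprogrammed into induced pluripotent stem cells (iPSC). The genes were Tead1, Tead2, Tead3, Tead4, Yap1, Wwtr1, Ccn1 and Ccn2. Every deposited ATAC-seq peak that overlapped the span of one of these genes, as annotated by RefSeq on GRCm38 (mm10) and extended by 50 kb on each side, was taken. Peaks of all stages that overlapped by at least 1 bp were merged into regions, which gave 207 regions for the 8 genes out of 165616 in all, and no region fell to more than 1 of the genes. The windows also hold 19 other protein-coding genes, 8 of them around Tead2 and 5 around Tead3, so a region is described by where it lies and is not assigned to a gene that it controls.

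ATAC-seq uses the Tn5 transposase to insert adapters where DNA is accessible, and it was applied to 16 samples, 2 at each of 8 stages. Day 0 was mouse embryonic fibroblasts (MEF) at passages 1 to 3, prepared from E13.5 embryos labelled 129XOG2. Cells at days 2, 4, 6, 8, 10 and 12 were the same fibroblasts kept in a reprogramming medium, whose composition is not given in the labels, and the iPSC stage was the reprogrammed line grown on feeder cells with LIF, CHIR99021 (a GSK3 inhibitor) and PD0325901 (a MEK inhibitor). Every sample, iPSC included, carries the same strain and the cell type label MEF, and OG2 mice are known to carry a green fluorescent reporter driven by Pou5f1 sequences. The feeder cells limit what the iPSC lists can show, since their share of the signal was not tested. The authors deposited 1 peak list per stage, so there was no replicate spread between the 2 samples of a stage, no test between stages was possible and no p-value is given.

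The Hippo pathway is a kinase cascade that holds back a pair of transcriptional coactivators. When the kinases LATS1 and LATS2 are active, they phosphorylate YAP (encoded by Yap1) and TAZ (encoded by Wwtr1), which are then kept in the cytoplasm or degraded. When the cascade is quiet, as in spread fibroblasts on a stiff surface, YAP and TAZ enter the nucleus and bind the TEAD factors, which contact DNA and turn on genes such as Ccn1 and Ccn2. TEAD4 and YAP are also known for their part in the trophectoderm decision of the early embryo, and both are also studied as regulators of stem cell states.

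The lists differed in depth, and this bears on every count of covered regions. The background pileup of a list, the lowest local read depth recovered from the peak caller's values, was 1.96, 3.08, 1.23 and 2.12 in the lists of days 0, 2, 4 and 6, and 0.682, 0.968, 0.248 and 1.90 in those of days 8, 10, 12 and iPSC. The lists held 31915 (day 12) to 83022 (day 2) peaks. Counts are therefore given as deposited and also after all deeper lists had been scaled down to the day 8 background pileup and the peaks tested again. The day 12 list, which is shallower still, was left as it is. Deposited folds are printed by stage below, but the caller adds 1 to pileup and local background, so that a fold depends on depth. The median fold of a list ran from 5.12 at day 6 to 6.10 at day 10. Folds of different stages are therefore not read as a change between them. Labels and markers were compared at gene ends: ends of 10 of 10 fibroblast genes had a peak at day 0, 5 at day 8 and 8 in iPSC, and ends of 2 of 10 pluripotency genes had one at day 0 and 7 in iPSC, where Esrrb, Dppa3 and Fgf4 had none. The day 0, day 10 and iPSC lists covered ends of 1, 7 and 6 of 8 epithelial genes, and of 1, 5 and 3 of 5 extraembryonic endoderm genes. Ends of 5 of 5 spermatid genes (Prm1, Prm2, Tnp1, Tnp2 and Smcp) had a peak at day 0 and in none of the other 7 lists. The part of this in the day 0 results was not tested, and the counts that rest on day 0 are also given without regions listed at day 0 alone.

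Proximal promoters of the members are shown first, because most of these start sites had a peak in every list. They are the 250 bases before the start site, from RefSeq on GRCm38.p6, 5′ to 3′ on the gene's strand. Capitals mark the TEAD core, searched as GGAATG on both strands, so that CATTCC is a match on the reverse strand.
Ccn1, chr3:145649986-145650235, minus strand: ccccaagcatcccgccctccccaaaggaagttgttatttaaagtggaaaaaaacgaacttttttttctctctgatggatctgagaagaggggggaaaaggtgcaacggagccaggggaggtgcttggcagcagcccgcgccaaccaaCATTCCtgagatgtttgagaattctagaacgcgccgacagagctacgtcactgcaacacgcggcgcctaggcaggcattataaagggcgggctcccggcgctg
Yap1, chr9:8004597-8004846, minus strand: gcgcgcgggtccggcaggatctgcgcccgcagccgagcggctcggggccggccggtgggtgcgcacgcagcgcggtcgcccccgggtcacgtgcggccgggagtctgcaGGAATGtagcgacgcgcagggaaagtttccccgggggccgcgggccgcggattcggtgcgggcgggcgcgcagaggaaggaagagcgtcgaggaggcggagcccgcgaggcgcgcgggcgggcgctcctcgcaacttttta
Wwtr1, first of 2 start sites, chr3:57575911-57576160, minus strand: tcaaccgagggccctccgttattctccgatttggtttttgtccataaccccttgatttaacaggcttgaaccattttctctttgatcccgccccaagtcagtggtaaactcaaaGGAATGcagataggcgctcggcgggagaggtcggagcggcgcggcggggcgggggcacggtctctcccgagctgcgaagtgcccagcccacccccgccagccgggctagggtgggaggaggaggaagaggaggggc
Tead3, first of 3 start sites, chr17:28350806-28351055, minus strand: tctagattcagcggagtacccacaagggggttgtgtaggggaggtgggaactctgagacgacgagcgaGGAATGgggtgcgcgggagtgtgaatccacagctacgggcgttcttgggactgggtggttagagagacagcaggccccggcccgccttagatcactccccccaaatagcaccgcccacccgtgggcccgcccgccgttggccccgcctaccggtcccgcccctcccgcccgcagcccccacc
Tead2, chr7:45215542-45215791, plus strand: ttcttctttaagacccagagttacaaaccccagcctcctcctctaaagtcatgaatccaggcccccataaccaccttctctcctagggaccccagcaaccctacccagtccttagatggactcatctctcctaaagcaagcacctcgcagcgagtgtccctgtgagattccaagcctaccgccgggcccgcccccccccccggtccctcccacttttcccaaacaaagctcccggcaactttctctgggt

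A TEAD core was present before at least 1 start site of 4 of the 5 members matched to the table, and of 13.5% of the 17491 protein-coding genes in it. By start site, 6 of the 8 members' windows held one, some of them overlapping, and 2491 of 21262 windows of all genes (11.7%) did. Ccn1 had it at bases -103 to -98 from the start, Yap1 at -141 to -136, Wwtr1 at -136 to -131 and Tead3 at -182 to -177, and Tead2 had none in these letters. A second Tead3 start site, at chr17:28350600, had a pair of cores at -123 to -118 and -114 to -109, and 0.837% of promoters held 2 or more. The third Tead3 start site had no core and no peak over its window in any list. Neither AP-1 sites (TGANTCA, in 6.13% of promoters) nor the SRF CArG box (in 1.39%) matched in any of these windows. The matches in Yap1, Wwtr1 and the first Tead3 promoter lay under a peak in all 8 lists, the match in Ccn1 in 5 lists (days 0, 2, 6 and 10, and iPSC), and the downstream pair in Tead3 in the day 4 list alone. These matches are letters in a window, and binding of a TEAD factor was not measured.

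Near the start sites, chromatin was listed as open at most stages for all 8 genes. Tead1, Tead3, Tead4, Yap1, Wwtr1 and Ccn2 had a peak within 1 kb of the start in all 8 lists, which was the case for 40.3% of the 17491 protein-coding genes with a listed start site. Over the alternatives tried, the starts of Tead1, Tead4 and Wwtr1 had a peak in 6 to 8 lists. At day 12 depth the number of lists with a start peak was 4 for Tead3, 5 for Yap1 and 4 for Ccn2, and it was 2 for Yap1 and 4 for Ccn2 where peaks had to cover at least 50% of the region, and 3 for Ccn2 in the better-scored 50% of each list. For Tead1, Tead4 and Ccn2 either end of the span was used, which gives more room for a match than 1 start site. In stage order from day 0 to iPSC, 8, 8, 7, 8, 7, 7, 6 and 8 members had the start covered. The shares of genes in the same order were 56.5%, 62.5%, 54.3%, 56.0%, 57.5%, 58.4%, 47.0% and 59.7%. The gaps belonged to Tead2 and Ccn1. At day 8 depth, the starts of Tead2, Ccn1 and Ccn2 were also missing at day 6 and that of Tead3 in iPSC.

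The 4 TEAD genes encode the DNA-binding partners of YAP and TAZ, and their surroundings differed from each other. Tead1 had 62 regions, of which 16 were listed at day 0 but missing from iPSC (called MEF-only), 8 had the opposite pattern (iPSC-only), 9 were listed at both end points (shared) and 29 only on 1 or more of the days between (intermediate-only). The 21 regions of Tead4 included 2 that were MEF-only and 9 that were iPSC-only. For Tead3 these were 2 and 7 of 17, and for Tead2 0 and 4 of 13. Tead1 was thus the only TEAD gene with more MEF-only than iPSC-only regions in the lists as deposited. At day 8 depth the counts of MEF-only and iPSC-only regions were 8 and 8 for Tead1, 0 and 3 for Tead2, 4 and 4 for Tead3, and 2 and 8 for Tead4, so that the excess was gone for Tead1 and Tead3 and stood for Tead2 and Tead4. At the lower day 12 depth they were 5 and 6 for Tead1, 2 and 1 for Tead2, 1 and 0 for Tead3, and 2 and 4 for Tead4, so that the direction held for Tead4 but turned for the other 3 genes. Among 13767 gene windows with at least 10 regions, 38.8% had more MEF-only and 46.3% more iPSC-only regions. Of these windows, 1.43% had an excess of MEF-only regions at least as large as Tead1's, and 2.43% an excess of iPSC-only regions at least as large as Tead4's. The excess is a count, and the windows were not matched for number of regions, of which Tead1 had 62. Without regions listed at day 0 alone, the Tead1 excess was 4 in place of 8.

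Tead1 is a long gene (chr7:112679356-112906784), and 47 of its 62 regions lay within it. Of its 16 MEF-only regions, 10, 4 and 10 were in the lists of days 2, 4 and 6, and 4, 5 and 2 in those of days 8, 10 and 12. The shares of all MEF-only regions on these days were 64.7%, 28.7%, 52.6%, 15.4%, 14.3% and 4.01%. The region chr7:112720093-112720991, inside the gene, was listed from day 0 to day 10 with deposited fold enrichments of 7.63, 6.91, 5.04, 8.08, 3.26 and 5.21. A neighbouring region inside the gene, chr7:112696505-112697710, was listed on the same days with folds of 5.76, 7.85, 5.23, 6.12, 6.24 and 5.23. These 2 regions outlasted most MEF-only regions of the gene but were absent at day 12 and in iPSC. By contrast, chr7:112662460-112663991, which lay 15365 bp outside the span, was listed only at days 0 to 6 (folds of 7.01, 8.16, 5.73 and 8.39), and chr7:112813318-112814166 at days 0, 2 and 6 (8.38, 4.52 and 6.62).

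On the iPSC side of Tead1, chr7:112841545-112842335 had folds of 5.65, 7.17 and 9.86 at days 8 and 10 and in iPSC, with no peak at day 12. The region chr7:112690699-112691877 had the same days, with folds of 7.64, 6.59 and 5.94. Of the 8 iPSC-only regions of Tead1, 0 were listed at days 2 to 6 (19.9% of all iPSC-only regions were) and 5 were listed in iPSC alone (64.7% of all were). Of the intermediate-only regions, chr7:112825698-112826741 was listed from day 2 to day 10 (folds of 4.30, 5.62, 4.17, 6.42 and 7.24) and in neither end point. The start of Tead1 (chr7:112678511-112679419) and a region in the neighbouring gene Rassf10 (chr7:112953719-112955420) were listed in all 8 lists.

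Tead2 was the only member whose start had no peak at days 8, 10 and 12 together. A peak at chr7:45215669-45217129 had summit pileups (reads over the highest base) of 30, 59, 13 and 15 in the lists of days 0, 2, 4 and 6 and of 27 in iPSC, and there was none at days 8, 10 and 12. The same 5 lists and no others covered the start of 56 of 17491 genes (0.320%). This pattern was read from Tead2 before it was counted, and shares of other mixed patterns are not given. The low share therefore does not show that Tead2 is unusual. The 3 lists without the peak were also the 3 with the lowest background pileup. The peaks of days 0, 2 and 4 and of iPSC remained at day 8 depth, and that of day 6 did not. The 250 bases printed above were overlapped only by the peaks of days 0 to 6, as the iPSC peak lay downstream of them.

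The regions around Tead2 that were listed when its start was not lay mostly in other genes. The region chr7:45211780-45212616 in Dkkl1, 3176 bp before the Tead2 span, was listed at days 8, 10 and 12 and in iPSC with folds of 6.94, 8.09, 4.76 and 4.43. The region chr7:45181757-45182904 in Pth2 was listed on days 2, 6, 8 and 10 (folds of 6.78, 5.94, 15.4 and 11.4) and in iPSC (5.80). Inside Tead2 itself there were only 2 regions, the start and chr7:45229175-45229885, which was listed in iPSC alone with a fold of 4.68.

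Tead3 had a start peak (chr17:28350654-28351317) in all 8 lists, and its height relative to other constant peaks differed between the end points. Its summit was ranked among the 8975 regions found in all 8 lists, as a percentile with ties at their average rank. The rank was 42.3%, 12.5%, 42.4% and 52.7% for days 0, 2, 4 and 6, 11.5%, 17.5% and 13.3% for days 8, 10 and 12, and 1.98% for iPSC. The iPSC summit was thus among the lowest of the constant peaks, and at day 8 depth it was no longer called. The only MEF-only region inside the gene, chr17:28340502-28341475, was listed at days 0, 2, 6, 8 and 10 with folds of 5.89, 3.39, 4.64, 6.17 and 7.30. Of the 7 iPSC-only regions, 6 were in no intermediate list (64.7% of all iPSC-only regions were), and 3 lay in other protein-coding genes, among them Ppard at chr17:28286895-28287819.

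Of the 9 iPSC-only regions of Tead4, 7 lay inside the gene. The strongest by fold, chr6:128254626-128255549, was listed in iPSC alone with a fold of 7.34, as was chr6:128296267-128297111 with 5.39. The region chr6:128227444-128228250 at the lower-coordinate end of the gene was listed at days 2, 4 and 10 and in iPSC (folds of 5.90, 8.09, 4.60 and 7.07). One region inside the gene ran the other way: chr6:128285821-128286267 was listed at every stage except iPSC, with folds of 5.01, 5.86, 4.53, 6.68, 9.26, 10.9 and 10.7 from day 0 to day 12. It was also the only 1 of the 48 MEF-only regions listed in all 6 intermediate lists. The peak at the other end of the gene, chr6:128299877-128301821, was in all 8 lists, and its rank among the 8975 constant regions was lowest at day 4 (16.0%) and highest at day 12 (83.9%).

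**Figure D1:**
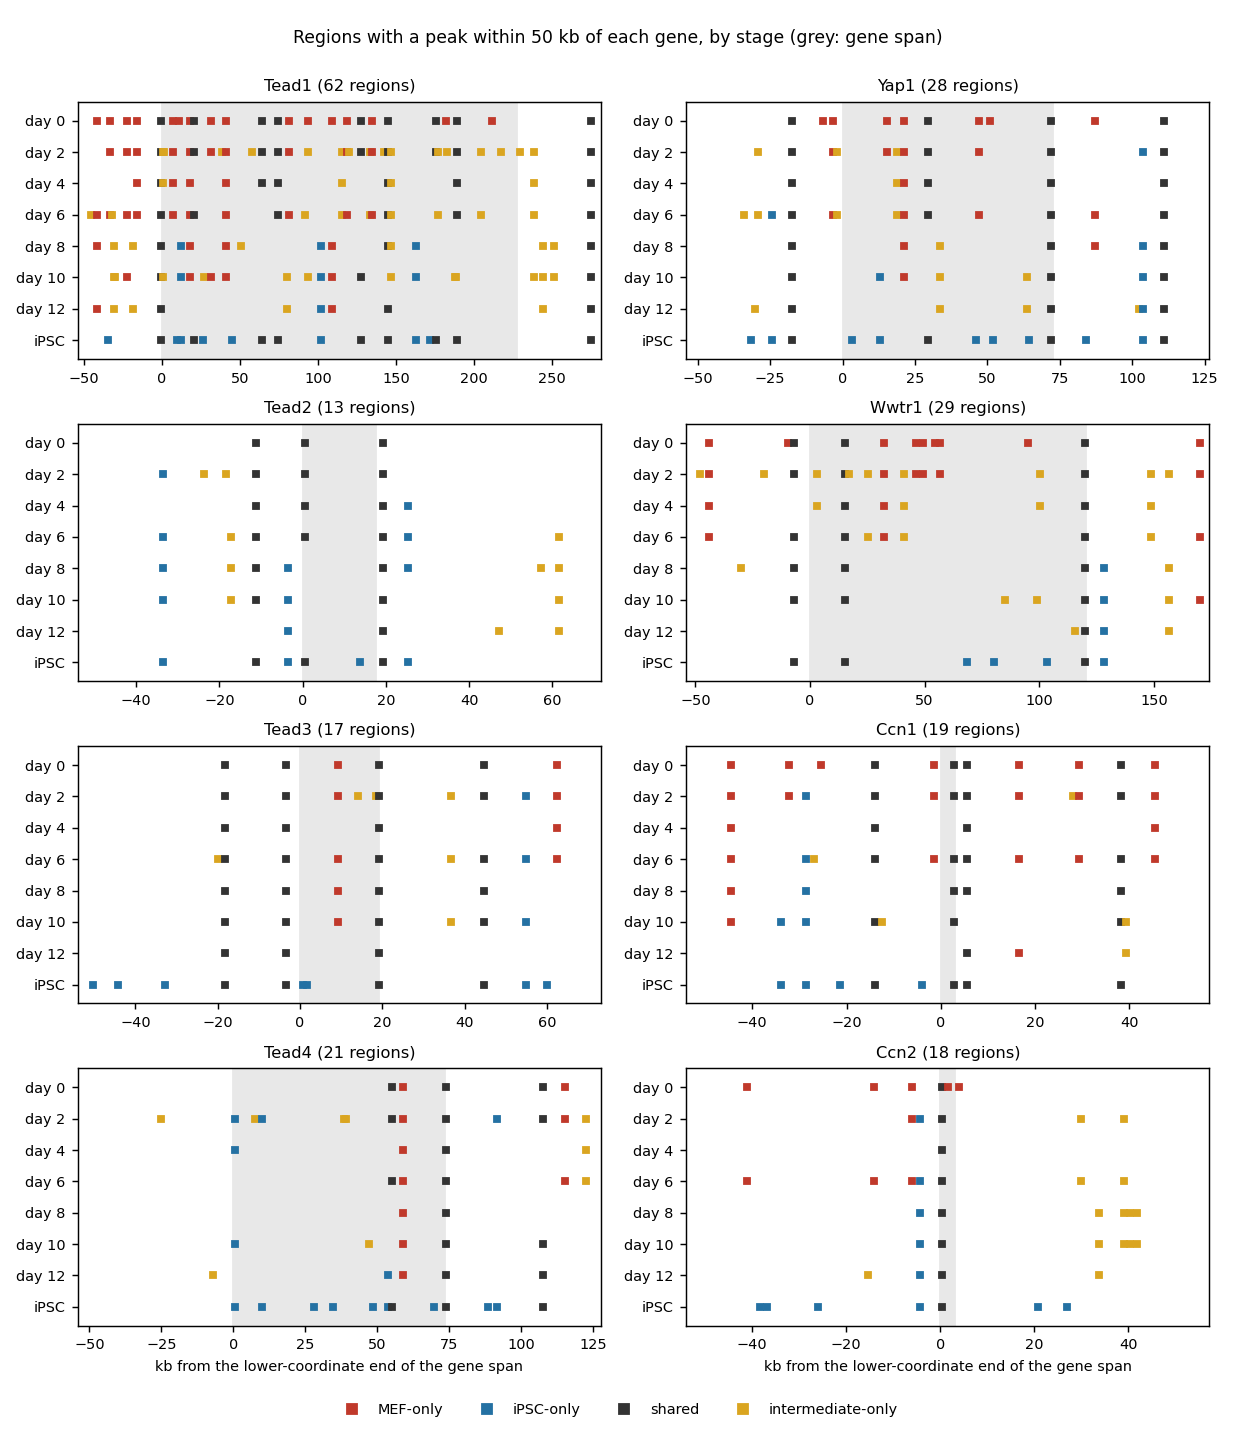
Regions with a peak within 50 kb of each of the 8 genes, by stage. The x axis is the distance in kb of the region's midpoint from the lower-coordinate end of the gene span (grey), each row is the list of 1 stage, and colours give the class of the region. Tead1 shows 16 MEF-only regions, mostly at days 0 to 6, and Tead4 shows 9 iPSC-only regions, most of them in the iPSC row.

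The coactivators Yap1 and Wwtr1 differed from each other in the same counts. Yap1, encoding YAP, had 28 regions, of which 7 were MEF-only, 9 iPSC-only, 4 shared and 8 intermediate-only. Wwtr1, encoding TAZ, had 29 regions with 9 MEF-only, 4 iPSC-only, 3 shared and 13 intermediate-only. After scaling to day 8 depth, MEF-only and iPSC-only regions numbered 5 and 6 for Yap1 and 8 and 3 for Wwtr1, and at day 12 depth 0 and 5 for Yap1 and 2 and 3 for Wwtr1. In a window of 20 kb the difference of MEF-only minus iPSC-only regions for Yap1 turned from -2 to 1. An excess of MEF-only regions at least as large as Wwtr1's was found in 5.73% of the gene windows with at least 10 regions. These windows were not matched for number of regions. Without regions listed at day 0 alone, the Wwtr1 difference was 2 in place of 5 and the Yap1 difference -4 in place of -2.

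Yap1 carried 3 regions that were in all 8 lists, the start (chr9:8002818-8005053), a region 16849 bp outside the span (chr9:7913903-7915150) and a region in Cfap300 (chr9:8042250-8043450). The last had folds of 9.32, 11.6, 9.28, 9.38, 12.9, 13.4, 8.22 and 10.8 from day 0 to iPSC. Inside the gene, chr9:7952781-7953871 was MEF-only and listed from day 0 to day 10 (folds of 4.30, 8.10, 4.57, 5.83, 7.64 and 8.99). The other MEF-only regions of Yap1 had at most 3 lists each. Among its iPSC-only regions, chr9:7977522-7978315 inside the gene was listed in iPSC alone with a fold of 8.68, and chr9:8035418-8036131 in Cfap300 was listed at days 2, 8, 10 and 12 and in iPSC (6.13, 5.93, 11.1, 8.65 and 9.47). Between the end points, chr9:7965372-7966031 inside Yap1 was listed at days 8, 10 and 12 only, with folds of 6.64, 7.68 and 6.96. In contrast, chr9:7950298-7951068 was listed at days 2, 4 and 6 only, with folds of 5.12, 4.73 and 3.46.

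Of the 9 MEF-only regions around Wwtr1, the lists of days 2 to 12 held 6, 2, 3, 0, 1 and 0, against 64.7%, 28.7%, 52.6%, 15.4%, 14.3% and 4.01% of all MEF-only regions. The low late counts were thus near the general share. The region with the highest day 0 score, chr3:57410527-57412291, lay 43353 bp outside the span and had folds of 9.34, 7.43, 4.04 and 7.14 at days 0 to 6. The region chr3:57487018-57488426 inside the gene had folds of 5.99, 8.95, 6.88 and 6.42 on the same days. Of the 13 intermediate-only regions, 5 were in at least 2 of the lists of days 2, 4 and 6 but in no later list (19.0% of all intermediate-only regions were), and none had the opposite pattern (9.43%). An example is chr3:57604052-57605018, with folds of 9.59, 6.37 and 6.10 at days 2, 4 and 6.

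Beyond its start, Wwtr1 also had regions that were listed at days 8, 10 and 12. At chr3:57583592-57584178, 7682 bp outside the span on the side of the start, there was no peak from day 0 to day 6, and folds were 6.22, 9.77 and 12.6 at days 8, 10 and 12 and 8.28 in iPSC. The intermediate-only region chr3:57611732-57612871 was listed at days 2, 8, 10 and 12, with folds of 5.39, 6.40, 7.47 and 8.33. The start region itself (chr3:57574234-57576800) was in all 8 lists. Its summit pileup ranked at 78.2%, 55.5%, 49.9% and 63.8% of the 8975 constant regions at days 0, 2, 4 and 6, at 86.7%, 76.5% and 81.9% at days 8, 10 and 12, and at 95.6% in iPSC. Thus the TAZ promoter stayed listed and ranked higher in each list from day 8 on than at days 2 to 6. Its day 0 rank of 78.2% was above that of day 10. Of the 9 MEF-only regions around it, 8 were in no list of days 8, 10 or 12. Of all MEF-only regions, 21.2% were in at least 1 of these lists, so that the count was near the general share.

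**Figure D2:**
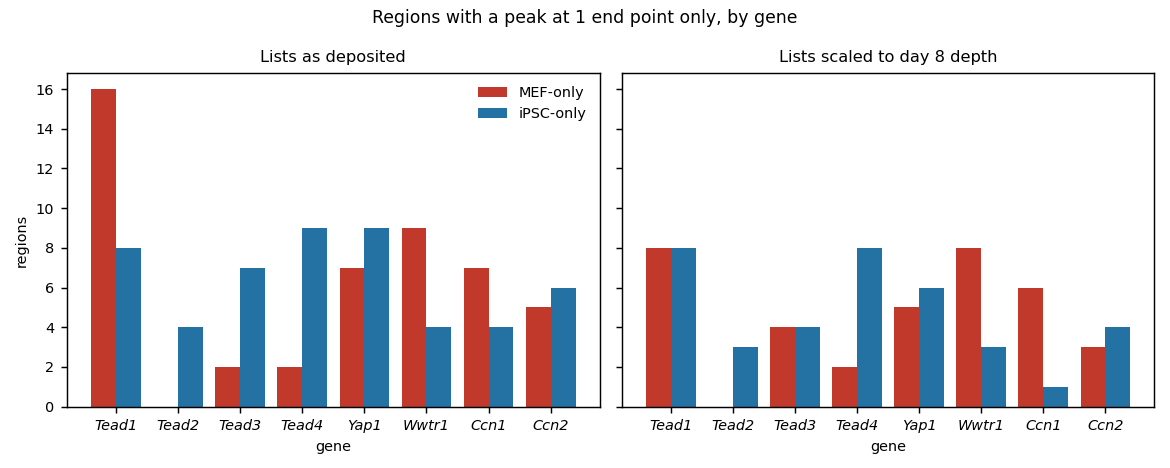
Number of regions with a peak at 1 end point only, for each gene, in the lists as deposited (left) and after scaling to day 8 depth (right). Tead1 had 16 MEF-only and 8 iPSC-only regions as deposited and 8 of each after scaling, whereas Tead4 kept fewer MEF-only (2) than iPSC-only (8) regions.

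Ccn1 and Ccn2 encode secreted matricellular proteins (also named CYR61 and CTGF) and are the usual readouts of YAP and TAZ activity in fibroblasts. Ccn1 had 19 regions with 7 MEF-only, 4 iPSC-only, 4 shared and 4 intermediate-only, and 6 and 1 of the end-point classes at day 8 depth. Ccn2 had 18 regions with 5 MEF-only, 6 iPSC-only, 1 shared and 6 intermediate-only, and 3 and 4 at day 8 depth. An excess at least as large as that of Ccn1 was seen in 16.3% of gene windows, again not matched for number of regions. The Ccn1 direction held under every alternative tried, though leaving out the day 2 or the day 12 list could not change it. The Ccn2 difference of -1 was 2 in a window of 20 kb and -3 without regions listed at day 0 alone.

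The Ccn1 start region (chr3:145649020-145650488) had summit pileups of 62, 77, 44, 17 and 43 at days 0, 2, 6, 8 and 10 and of 53 in iPSC, and no peak at days 4 and 12. The background pileup was 1.23 in the day 4 list and 0.682 in the day 8 list, which held the peak. The cause of the gap at day 4 was not tested. The day 0 peak stood on a high local background, 13.5 times the background pileup of the list, and 99.9% of the day 0 peaks had a lower value. At days 2, 6, 8 and 10 this ratio was 8.19, 8.04, 5.56 and 6.38, and in iPSC 7.41. Because the deposited fold divides by this local background, the fold at the Ccn1 start was only 2.30 at day 0 although the summit was 31.7 times the background pileup of the list. A second region just upstream, chr3:145651271-145653714, named here after its values were seen, was in 7 lists, with no peak at day 10, so that the days 4 and 12 had a peak upstream of the start.

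Of the 7 MEF-only regions of Ccn1, the lists of days 2 to 12 held 6, 2, 5, 1, 1 and 1, where the shares of all MEF-only regions were 64.7%, 28.7%, 52.6%, 15.4%, 14.3% and 4.01%. All 7 lay outside the gene span, the nearest 550 bp from it. The region in the most lists was chr3:145601949-145603074 in Znhit6, listed from day 0 to day 10 with folds of 7.66, 7.90, 6.17, 7.65, 4.76 and 3.56. The region chr3:145675934-145676721 was listed at days 0, 2 and 6 (7.50, 4.99 and 6.56). The iPSC-only region with the most lists, chr3:145618149-145618763, was listed at days 2, 6, 8 and 10 and in iPSC (4.13, 3.99, 6.47, 5.89 and 5.18).

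The Ccn2 start (chr10:24595335-24596242) was in all 8 lists, and its rank among constant peaks had the widest range of the 6 members listed throughout. Summit pileups were 63, 45, 14, 19, 13, 24, 13 and 71 from day 0 to iPSC, which ranked at 75.2%, 13.3%, 8.62%, 8.90%, 5.08%, 13.2%, 49.6% and 81.7% of the 8975 constant regions. The start peak was thus among the higher constant peaks at both end points and among the lower at days 2 to 10. The local background around it was also higher at day 0, day 12 and in iPSC than at days 2 to 10, at 10.2 times the list background at day 0, 1.69 to 4.91 times at days 2 to 10, 9.49 at day 12 and 8.40 in iPSC. Regions in the gene and at its far end (chr10:24596876-24597274 and chr10:24598927-24600019) were listed at day 0 alone. The ranks use the same regions in each list, and the spread that 2 samples of a stage would show is unknown.

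The distal Ccn2 regions fell into groups by stage. The MEF-only regions chr10:24553931-24554579 and chr10:24581053-24581469 were listed at days 0 and 6 (folds of 8.94 and 6.10, and of 7.94 and 8.42), and chr10:24588867-24589826 at days 0, 2 and 6. Of the 5 MEF-only regions of Ccn2, 0 were listed at days 8 to 12, where 21.2% of all MEF-only regions were, so that the count was near the general share. At chr10:24590418-24591952, 3490 bp from the span, the iPSC-only region was listed at days 2, 6, 8, 10 and 12 and in iPSC (3.42, 2.52, 6.28, 4.13, 6.91 and 5.48), and at day 8 depth only from day 8 on. Between 30226 and 38440 bp from the span on the other side, 4 intermediate-only regions were listed at days 8 and 10, and 3 of these were in no list of days 0 to 6. The strongest, chr10:24628909-24629474, had folds of 10.5, 10.1 and 11.2 at days 8, 10 and 12 and no peak at days 0 to 6 or in iPSC.

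**Figure D3:**
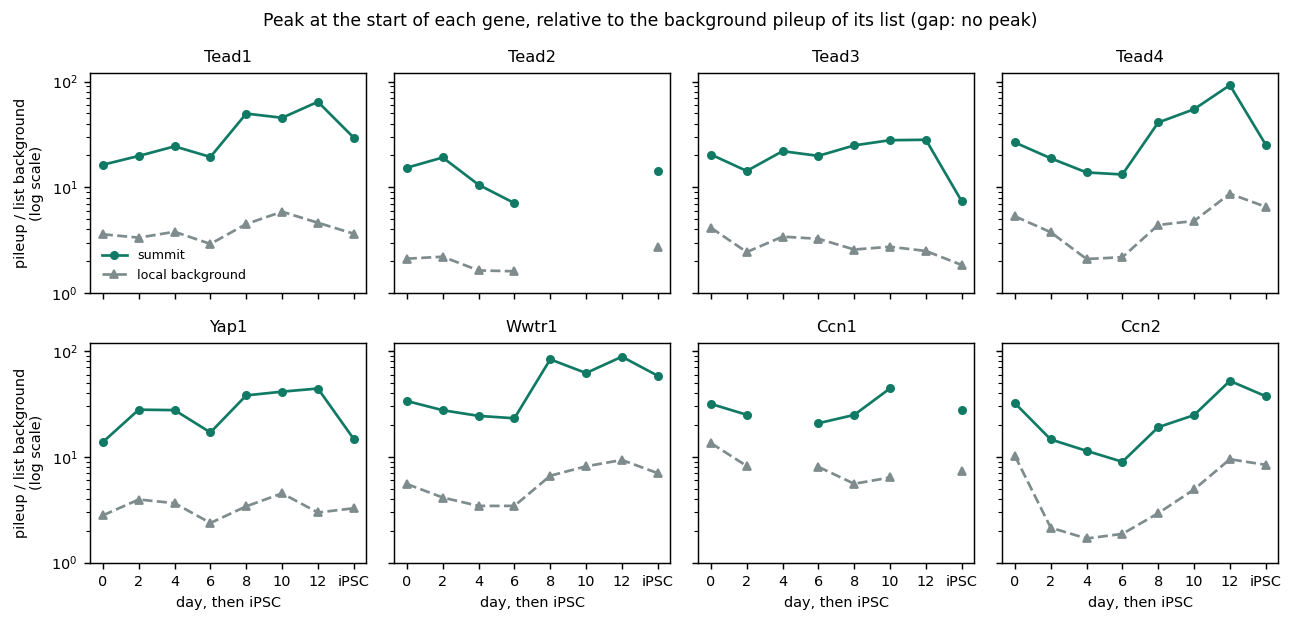
Peak at the start of each gene by stage (x axis: day, then iPSC). The y axis (log scale) gives the summit pileup and the local background around it, each divided by the background pileup of that list; a gap means no peak. Tead2 has no peak at days 8, 10 and 12, and Ccn1 none at days 4 and 12. The ratio depends on list depth, so that heights between stages are read from the ranks in the text.

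Over all 8 genes, 48 of the 207 regions were MEF-only (23.2%, exact 95% interval 17.6 to 29.5), against 19.1% of the 129361 regions within 50 kb of any protein-coding gene. iPSC-only regions numbered 51 (24.6%, 18.9 to 31.1; 19.8% of all), shared regions 31 (15.0%, 10.4 to 20.6; 12.4% of all) and intermediate-only regions 77 (37.2%, 30.6 to 44.2; 48.8% of all). The interval for intermediate-only regions lay below the background share, and those of the other classes included it. These intervals cover counting error only, and regions of 1 gene are not independent. Regions in all 8 lists numbered 12 (5.80%, against 6.80%), and 88 were in 1 list (42.5%, against 49.9%). Without regions listed at day 0 alone, 36 MEF-only regions were left.

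Shared regions were the widest, with a median of 1248 bp, followed by MEF-only regions with 778 bp, iPSC-only regions with 617 bp and intermediate-only regions with 397 bp. A region is the union of its peaks, so that its width tends to grow with the number of lists. Shared regions are in both end-point lists by definition, and widths over all genes are not given. The order is thus not read as a trait of the classes. By position, 25 of 48 MEF-only and 25 of 51 iPSC-only regions lay inside the gene span of the member, and 2 and 7 lay in other protein-coding genes. Of these 7, 3 lay around Tead2 and 3 around Tead3, whose windows hold 8 and 5 of the 19 other genes, and 1 around Yap1. Shares by position over all genes are not given, so that these counts are not read as a trait of the classes. The median deposited fold at day 0 was 4.71 for the 48 MEF-only regions, and 5.07 for all MEF-only regions near protein-coding genes. It was 5.89 for the 29 that were also listed at day 6 and 3.57 for the 19 that were not. For all MEF-only regions near protein-coding genes the same split gave 5.80 and 4.40. In iPSC the median was 4.63 for the 51 iPSC-only regions, with 5.18 for the 15 also listed at days 8 to 12 and 4.33 for the other 36. For all iPSC-only regions near protein-coding genes these medians were 4.83, 5.24 and 4.72.

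**Figure D4:**
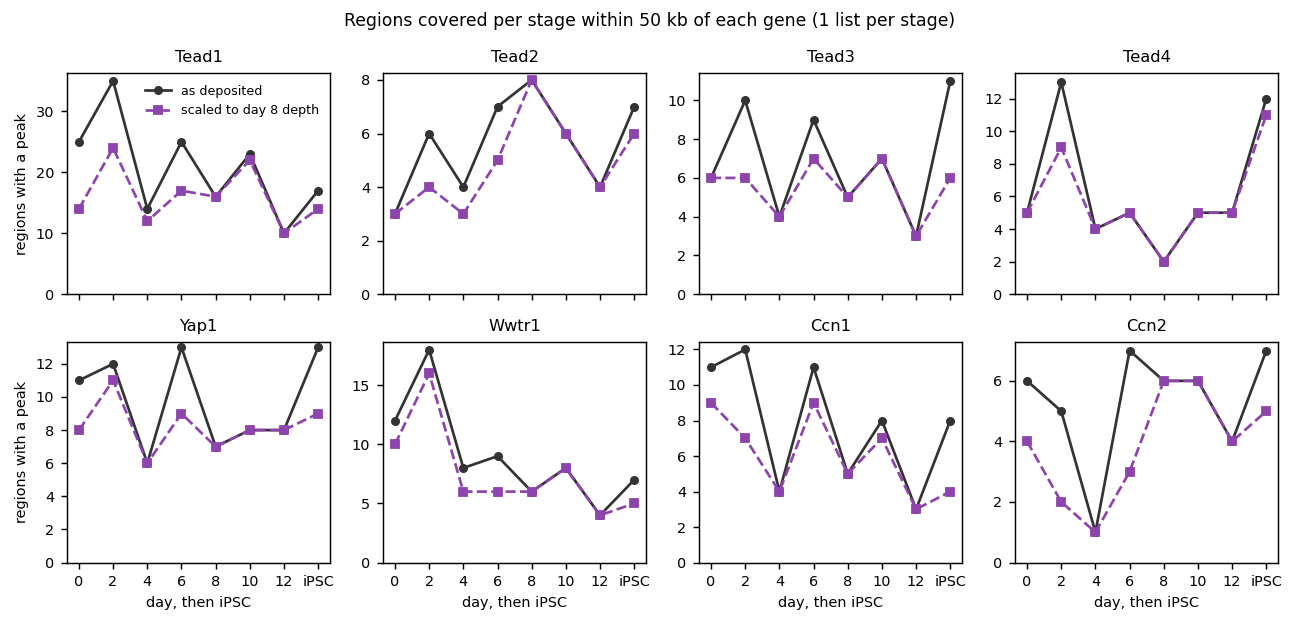
Number of regions with a peak at each stage, per gene, as deposited (black) and scaled to day 8 depth (purple, dashed). The x axis is the day, then iPSC. Wwtr1 has 18 regions at day 2 and 4 at day 12 as deposited, while Tead4 has 2 at day 8 and 12 in iPSC.

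In stage order from day 0 to iPSC, the lists covered 79, 111, 45, 86, 55, 71, 41 and 82 of the 207 regions. These were 38.2%, 53.6%, 21.7%, 41.5%, 26.6%, 34.3%, 19.8% and 39.6% of the members' regions, against 31.4%, 51.1%, 25.2%, 34.9%, 26.2%, 28.8%, 19.5% and 32.2% of the 129361. The exact 95% intervals of the day 0 share (from 31.5%) and the iPSC share (from 32.9%) began just above the background, and the other 6 included it. At day 8 depth the counts were 59, 79, 40, 61, 55, 69, 41 and 60, against backgrounds of 24.6%, 34.9%, 21.7%, 24.5%, 26.2%, 27.9%, 19.5% and 24.4%, and all 8 intervals included the background.

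MEF-only regions of the 8 genes were listed mostly at days 2 and 6. Of the 48, the lists of days 2, 4 and 6 held 31, 11 and 29, where the shares of all MEF-only regions were 64.7%, 28.7% and 52.6%. The lists of days 8, 10 and 12 held 9, 10 and 4, with shares of all of 15.4%, 14.3% and 4.01%. In all, 35 of the 48 (72.9%, against 69.7% of all MEF-only regions) were in at least 1 list of days 2 to 6. There were 13 (27.1%, against 21.2%) in at least 1 of days 8 to 12, and 12 (25.0%, against 28.1%) in no intermediate list. The count was thus 29 at day 6 and 9 at day 8. At day 8 depth the 6 lists held 25, 10, 24, 9, 9 and 4 of them, against 51.6%, 25.5%, 41.0%, 15.4%, 13.9% and 4.01% of all. The members' intervals included the background share on each of the 6 days, with the low day 12 count based on the shallowest list.

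iPSC-only regions were seldom listed before the iPSC stage. Of the 51, the lists of days 2 to 12 held 8, 2, 6, 10, 13 and 6, against 17.0%, 7.23%, 9.38%, 16.5%, 19.3% and 10.3% of all iPSC-only regions. At day 8 depth they held 4, 1, 5, 10, 13 and 6, against 8.68%, 5.54%, 4.66%, 16.5%, 18.8% and 10.3%. In all, 10 (19.6%, against 19.9% of all) were in a list of days 2 to 6, 15 (29.4%, against 26.5%) in a list of days 8 to 12, and 33 (64.7%, against 64.7%) in no intermediate list. The members' intervals included the background share on each of the 6 days, as deposited and scaled. Of the 77 intermediate-only regions, 14 (18.2%, against 19.0% near all genes) were in at least 2 of the first 3 intermediate lists but in no later one, and 11 (14.3%, against 9.43%) had the reverse. The 14 were 5 around Wwtr1, 4 around Tead1, 3 around Yap1 and 1 each around Tead4 and Ccn2, and the 11 were 5 around Tead1, 3 around Ccn2, 2 around Yap1 and 1 around Ccn1.

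**Figure D5:**
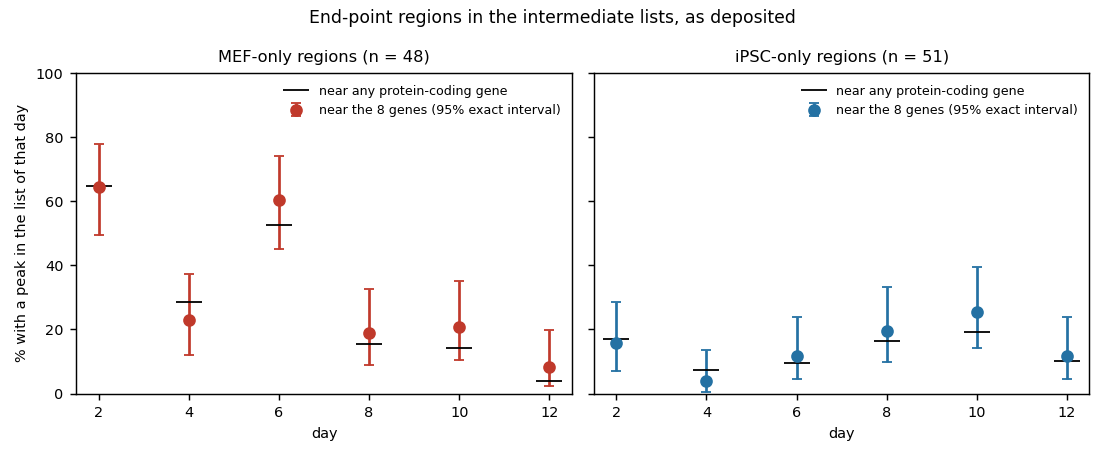
Share of the MEF-only (left, n = 48) and iPSC-only (right, n = 51) regions of the 8 genes with a peak in the list of each day. Points are the members with exact 95% intervals for counting error, and black bars are all such regions within 50 kb of a protein-coding gene. The MEF-only share is 60.4% at day 6 and 18.8% at day 8, and the black bars go from 52.6% to 15.4%.

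Other genes of the pathway were counted in the same way. Among 27 kinases and regulators of the cascade, 14 had more MEF-only than iPSC-only regions within 50 kb, 8 had fewer and 5 had equal numbers, with a median difference of 1. Among 25 known target genes of YAP and TEAD, 18 had more, 5 fewer and 2 equal numbers, with a median of 3. For all 21883 protein-coding genes, 31.6% had more MEF-only regions and 41.1% more iPSC-only regions, and the median was 0. Scaled to day 8 depth, 15 had more and 6 fewer among the regulators and 18 and 5 among the targets, where 31.5% of all genes had more and 36.7% fewer. The lists share 4 genes, gene length differs between genes, and no test of the lists was made.

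The largest differences among the regulators were 7 MEF-only against 1 iPSC-only region for Lats2 and 9 against 3 for Taok3, kinases of the cascade, 1 against 7 for Nf2, the upstream tumour suppressor, 5 against 0 for Amot, an angiomotin that binds YAP, 0 against 5 for Mob1b, a LATS cofactor, and, tied, 9 against 4 for Vgll4, a TEAD cofactor that competes with YAP, and 7 against 2 for Fat4, an atypical cadherin. Among the targets they were 31 against 16 for Rbms3, 13 against 6 for Crim1, 8 against 1 for Ccdc80, 7 against 1 for Lats2, and ties at a difference of 4 for Axl, Dock5, Asap1, Myof and F3. These genes were picked for the size of the difference as deposited. At day 8 depth, MEF-only minus iPSC-only regions were 5 for Lats2, 4 for Taok3, -4 for Nf2 and 3 for Amot. For Mob1b, Vgll4 and Fat4 the difference was -2, 5 and 2. For Rbms3, Crim1, Ccdc80 and Axl it was 9, 6, 7 and 5. For Dock5, Asap1, Myof and F3 it was 3, 1, 7 and 2. MEF-only regions of the target list were listed 93 times at day 6 and 30 times at day 8, out of 172, and those of the regulators 60 and 21 times out of 127. The shares of all MEF-only regions were 52.6% and 15.4%, and both lists were near them.

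Genes whose number of covered regions, per 1000 covered regions of a list, followed the members most closely over the 8 stages were found among 13767 genes. The highest Pearson r values were 0.976 (Dbx1) and 0.959 (Cyp1b1) for Tead1, 0.967 (Dnajc17) and 0.959 (Mief1) for Tead2, 0.970 (Prag1) and 0.960 (Rfx1) for Tead3, and 0.969 (Loxhd1) and 0.954 (Plcb4) for Tead4. They were 0.973 (Noct) and 0.971 (Yaf2) for Yap1, 0.953 (Gnaq) and 0.949 (Il18r1) for Wwtr1, 0.966 (Spata45) and 0.964 (Eri1) for Ccn1, and 0.985 (Pld3) and 0.961 (Fsbp) for Ccn2. The 8 points share the lists and their depths, and between 10 (Yap1) and 66 (Tead2) genes had an r over 0.9. With so few points and so many genes, high values can arise from the selection alone. The number that unrelated genes would give was not computed, and no link between the genes is read from these values.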

How the data were processed

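ATAC-seq of 16 samples (2 per stage) was used as the peak lists that the authors deposited, 1 per stage. The tools named, as the submitters' processing notes list them, are MACS2 (2.1.2), Bowtie2 (2.2.5), deepTools (3.4.3), SAMtools and fastp (0.20.1), and the build is mm10. Their settings, any shift of reads for the Tn5 offset, and the way in which the pair of samples gave 1 list are not given in the sources used here. Each deposited peak has a score, a summit fold (a ratio), a p-value and a q-value, the last 2 as −log10, written by the authors' caller. Peaks were ranked and depth was recovered from these values within each list. The folds printed for several stages are as deposited and are not compared between lists.

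The caller computes the fold with a pseudocount of 1 on pileup and local background, and the p-value from a Poisson distribution, so both quantities could be solved for per peak. In every list 99.998% or more of the peaks were recovered within 0.001 on the −log10 scale, and the method was tested on simulated data. For the alternatives at day 8 or day 12 depth, pileup and background were scaled down together and p was computed again. Between 36 and 57 peaks per list lay outside chromosomes 1 to 19, X and Y and were left out.

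Spans of 21883 protein-coding genes came from the RefSeq gene table of GRCm38.p6 (mm10 has the same chromosomes), and promoters from the RefSeq promoter table of the same build, which matched 5 of the 8 members. Regions were named by rule: those within 1 kb of a start, up to 4 MEF-only and 3 iPSC-only regions per gene by score, up to 3 intermediate-only regions by number of lists, and those in all 8 lists. The members and the lists of genes were chosen with earlier results of these data known. Alternatives were a 20 kb window, the better-scored 50% of each list, equal list lengths, both depths and a cover of at least 50% of a region, and 3 further ones added after seeing the data. Intervals are exact Clopper-Pearson 95% intervals. Python 3.11.15, numpy 2.4.6, pandas 2.3.3, scipy 1.17.1 and matplotlib 3.10.9 were used.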

Additional observations from a re-analysis of the deposited data

How the results depend on the processing

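Of 72 recomputed counts over all 8 genes, 52 stayed within 1.5 times the value given and 20 did not. Some of the 52 could not change, such as the MEF-only, iPSC-only and shared counts without the day 2 or the day 12 list. With the better-scored 50% of each list, MEF-only regions numbered 29 in place of 48, iPSC-only 25 in place of 51, shared 13 in place of 31 and intermediate-only 44 in place of 77, with 8 MEF-only regions at days 8 to 12 in place of 13 and 6 iPSC-only regions at days 2 to 6 in place of 10. At equal list lengths, iPSC-only regions numbered 27, intermediate-only regions 48, and iPSC-only regions at days 2 to 6 were 2. At day 12 depth there were 18 MEF-only, 23 iPSC-only and 5 shared regions, 12 MEF-only regions at days 2 to 6, 7 at days 8 to 12, and 6 iPSC-only regions at days 2 to 6. A 20 kb window left 50 intermediate-only regions, 23 MEF-only regions at days 2 to 6 and 5 iPSC-only regions at days 2 to 6. With peaks over at least 50% of a region, 10 regions were shared and 7 MEF-only regions were listed at days 8 to 12. Fewer peaks or a smaller window give fewer regions by construction.

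MEF-only minus iPSC-only regions turned sign at day 12 depth for Tead1 (-1 in place of 8), Tead2 (1 in place of -4), Tead3 (1 in place of -5) and Wwtr1 (-1 in place of 5). With the better-scored 50% it was 4 for Tead3 and 1 for Ccn2 (in place of -1), at equal lengths 3 for Tead3 and 1 for Ccn2, and in the 20 kb window 1 for Yap1 (in place of -2) and 2 for Ccn2. The cause was not tested. Tead4 and Ccn1 kept their sign under all 9 alternatives, but leaving out the day 2 or the day 12 list cannot change this difference. Leaving out regions listed at day 0 alone can only lower the difference, so it could not turn the negative value of Tead4. Of 3 alternatives chosen after seeing the data, leaving out the day 2 list gave 57 intermediate-only regions, leaving out the day 12 list 71, and leaving out regions listed at day 0 alone 36 MEF-only regions, none past 1.5 times. Without either list, the MEF-only, iPSC-only and shared counts could not change. No paired analysis was possible because each stage has 1 list whose columns carry no replicate, and no replicate could be left out for the same reason. The number of lists with a start peak went from 5 to 3 (better-scored 50%) and 2 (day 12 depth) for Tead2, and from 6 to 3 (better-scored 50%, equal lengths or 50% cover) and 1 (day 12 depth) for Ccn1. The day 12 list had the lowest background pileup, 0.248, and for a single region missing there, depth and closed chromatin cannot be told apart. With classes assigned anew at that depth, 18 regions were MEF-only. They are not a subset of the 48, since Tead2 had 0 MEF-only regions as deposited and 2 at that depth. Thus the 18 cannot be set against the 4 of the 48 that were listed at day 12.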
